A study of Mus musculus with 12 samples.

Results

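The m6A peaks of normal mouse colon were described from the 3 peak lists of normal animals, out of 6 lists in the series, without any comparison with colitis. The members are the genes listed by name with at least 1 peak in every normal list, which were 7469 of the 9896 genes with a peak in any of them. The study immunoprecipitated RNA with an antibody against N6-methyladenosine (m6A), sequenced it beside an input library of the same sample, and deposited 1 list of peaks in mRNA per sample. All normal animals were male wild-type C57BL/6J mice under normal feeding, aged 6 to 8 weeks and weighing 20 to 22 g, and none of these 3 lists was made from a treated animal. The labels number the samples 1 to 3 and do not say in words that each came from a separate mouse, so the SDs below describe the spread between these 3 lists. The other lists, from mice given a colonic hapten, were not used here.

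The tissue field of the labels says colon, while the extraction text in the labels speaks of retina. Of 20 retina genes listed for a check, among them Rcvrn, Pde6a, Pde6b, Gnat1 and Sag, 0 had a peak in any normal list. Of 8 markers of colon epithelium, Vil1, Cdx1, Cdx2 and Krt20 had a peak in all 3 lists, Krt8 had one in 1 list, and Cdh17, Car1 and Slc26a3 had none. Of 3 smooth muscle markers, Myh11 had a peak in all 3 lists, and Des and Cnn1 each had one in 1 list. For scale, 33.0% of all protein-coding genes had a peak in all 3 lists, and the muscle count is near that share. The lists hold peaks in some transcripts of epithelium and of muscle, and none in the retina genes checked. The markers are few, and the tissue of origin was not tested by them.

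N6-methyladenosine is a methyl mark placed on adenosines inside mRNA by a nuclear writer complex built around METTL3 and METTL14. The demethylases FTO and ALKBH5 can remove it, and reader proteins such as the YTH family bind it and influence how the RNA is spliced, translated and degraded. The mark is known to gather in long internal exons and around the stop codon and at the start of the last exon, in a short motif whose commonest form is GGACU, written GGACT in DNA letters. Immunoprecipitation recovers short fragments around the mark, so a peak shows a stretch of transcript and not a single base. A listed peak also needs enough RNA of its gene, and transcript levels and read depth were not measured separately here, so a gene without a peak is only a gene without a listed peak.

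The sequences in hand cover the first 50 bases after gene starts, a place where many colon peaks lay. The stretches below show where the letters GGACT fell in some genes whose first 50 bases were covered by a peak in all 3 lists. They are 30-base pieces of the RefSeq GRCm38.p6 sequence, given 5′ to 3′ on the strand of the gene with GGACT in capitals, for 2 of the genes with a listed peak near the top by score or fold (Golim4, a Golgi membrane protein, and Ahnak, a giant scaffold protein), for the early response transcription factors Jun and Junb, and for the intestinal transcription factors Foxa3 and Isx. The pieces lie at chr3:75956920-75956949 on the minus strand, chr19:8989299-8989328 on the plus strand, chr4:95052185-95052214 on the minus strand, chr8:84978699-84978728 on the minus strand, chr7:19023510-19023539 on the minus strand and chr8:74873174-74873203 on the plus strand, in the order printed.
Golim4: GGACTtcctcccggaatcccgttggccatg
Ahnak: gctctgccgcggGGACTgcactgtccgccc
Jun: caggctggataaGGACTcagagttgcactg
Junb: gccgagcactggGGACTttgagggtggcca
Foxa3: gcgGGACTcccgggctgtgtgcctcaggtc
Isx: agGGACTgcctgaagccagcaggaagggga

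The peak over the Ahnak stretch was 146 bases long in every list, and those over Junb and Isx were 1840 and 1139 bases long in every list. The Golim4 stretch lay under a peak of 838 bases in every list, a different peak from those that gave the gene its rank. The Foxa3 stretch lay under a peak of 191 bases with low scores of 89.61, 271.07 and 583.24, where the lowest listed score was 50. These genes were not typical of gene starts under peaks. Of the 1558 protein-coding genes whose first 50 bases lay inside a peak in all 3 lists, 70 held GGACT there on the strand of the gene, a share of 4.49%. Among all 21263 protein-coding windows of that length the share was 5.86%, and among the 18316 windows inside no listed peak it was 6.02%. The reverse strand, read as AGTCC, held the motif in 6.48% of the windows under a peak in all 3 lists and in 5.02% of all windows. The shorter letters GGAC, which also occur inside GGACT, stood in 20.9% of the windows under such peaks and in 20.0% of all windows. The windows under peaks were richer in G and C, at 67.9% against 60.1% of all windows, and fewer of them began with A, at 29.01% against 37.4%. The 5080 windows inside no peak, from genes that had peaks elsewhere in all 3 lists, held 63.5% G and C and GGACT in 5.43%. A match describes letters only, and peaks away from gene starts were not searched for motifs.

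Most genes with a peak in any normal list had one in every list. The lists of normal 1, normal 2 and normal 3 held 16488, 16324 and 13992 peaks in 9036, 8872 and 8156 genes. No listed peak had a false discovery rate of 5% or less, and 10.5%, 13.7% and 37.8% of them had one of 100% or more. The 7469 genes shared by all 3 lists were 75.5% of the 9896 genes with any peak, and made up 82.7%, 84.2% and 91.6% of the genes of the 3 lists. Their peaks were 88.7%, 90.3% and 94.8% of all listed peaks. A further 1230 genes (12.4%) had a peak in 2 lists and 1197 (12.1%) in 1 list. Normal 1 and normal 2 shared 779 genes that normal 3 lacked, more than the 243 shared by normal 2 and normal 3 alone or the 208 shared by normal 1 and normal 3 alone. Normal 3, the shortest list, had 236 genes of its own, against 580 in normal 1 and 381 in normal 2. Of the 21900 protein-coding genes of the RefSeq table for GRCm38.p6, 7229 had a peak in all 3 lists, which is 33.0% and is the background for the gene groups below.

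Genes found in fewer lists had a weaker and shorter highest-scored peak. The score listed for a peak is 10 times the negative log10 of its p-value from the peak caller, and it was turned into a percentile within its own list. The highest-scored peak of a gene had a median percentile of 67.7 in genes of all 3 lists, 24.5 in genes of 2 lists and 14.6 in genes of 1 list, averaged over the lists that held the gene. The median length of that peak was 1009, 655 and 536 bases in these classes. Where such a gene was listed, it had a single peak in 51.5%, 85.7% and 93.9% of cases. Genes of all 3 lists thus had more peaks from which the highest was taken. The genes of 1 list with the highest percentiles were exceptions. Adprhl2 reached percentile 99.97 in normal 1, with a peak of 819 bases and a fold enrichment of 21.34, and had no peak in the other lists. That percentile comes from a score above 3100, a range treated below as 1 limit without order. Ocel1 had a peak of 4645 bases in normal 2 alone, with a fold enrichment of 105.6, and Prpf38b, an mRNA splicing factor, and Hnrnpd, an RNA-binding protein, also had a peak in normal 2 alone. Lypd1, too, was listed in normal 2 alone, but peaks of both other lists overlapped it under the name of its neighbour Gpr39. Among genes of exactly 2 lists, Nr2f6, a nuclear receptor, had a peak of 970 bases with a fold enrichment of 122.73 in normal 1 and 91.7 in normal 3, and none in normal 2. The others of highest percentile in 2 lists were Cnbd2, the epithelial adhesion gene Ceacam1, Dip2a and the ribosomal protein gene Rpl21, whose near-identical copies make its peaks uncertain. Of the 2427 genes of 1 or 2 lists, 49 had a peak of another name in the same place in a list that lacked them.

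The share found in all 3 lists was lower by region than by gene name. Overlapping peaks, by 1 base or more, were merged across the 3 lists into 19653 regions, of which 11656 (59.3%) held a peak of every list, 3618 (18.4%) of 2 lists and 4379 (22.3%) of 1 list. Regions of all 3 lists had a median length of 796 bases, those of 2 lists 372 bases and those of 1 list 256 bases. A merged region spans all its peaks, so its length can grow with the number of lists joined. Of the 7469 genes, 7318 had at least 1 region shared by all 3 lists, and 151 had peaks in every list but in no common place. The intervals themselves often matched to the base: 7029 had the same start and end in all 3 lists, which was 42.6%, 43.1% and 50.2% of the peaks. From 68.1% to 80.3% of the peaks shared at least 1 end with a peak of both other lists. Of the peaks placed on their gene in the RefSeq table, about 15% to 16% (15.2%, 15.5% and 16.3%) stopped at a limit of that gene. Why so many bounds were identical was not tested, and no exon table was used.

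Most of these genes carried 1 or 2 peaks. The mean number of peaks per gene was 1.96 in normal 1, 1.97 in normal 2 and 1.78 in normal 3 (mean 1.90 ± 0.11, SD, n = 3 lists), over the 7469 genes. A single peak was listed for 49.03%, 48.7% and 56.7% of them, and 2 peaks for 28.6%, 28.1% and 25.4%. At least 5 peaks were listed for 412, 396 and 283 genes, and 10 or more for 21, 22 and 15. Normal 3 thus had fewer peaks per gene than the others, as it had fewer peaks in all. The same number was listed in all 3 lists for 4332 genes (58.0%), a difference of 1 for 2396, and a difference of 2 or more for 741. Exactly 1 peak in each list was found for 3013 genes (40.3%), and at least 5 in each list for 214.

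**Figure D1:**
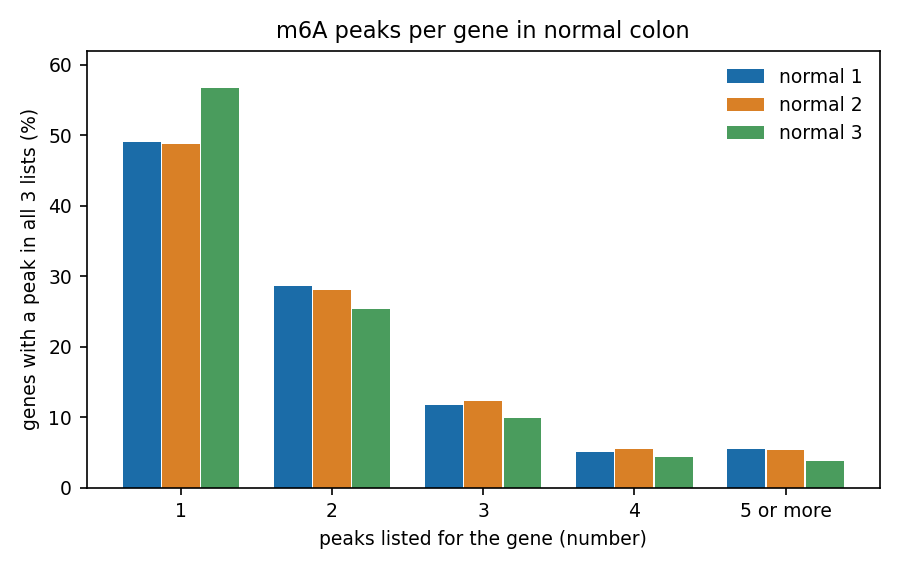
Number of peaks per gene in each normal list, over the 7469 genes with a peak in all 3 lists, as the percentage of those genes with a given number. Normal 3 has more genes with 1 peak (56.7%) than normal 1 (49.03%) and normal 2 (48.7%), and fewer in each class of 2 or more peaks.

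Genes with more peaks were longer and had higher-ranked peaks. The median genomic span was 17.1 kb for the 3013 genes with 1 peak in each list, 28.6 kb for the 937 with 2, 35.7 kb for the 261 with 3, 56.0 kb for the 75 with 4 and 98.0 kb for the 214 with 5 or more. The median percentile of the highest-scored peak was 57.6, 75.5, 87.4, 88.0 and 91.4 in the same order, and a gene with more peaks has more chances to hold a high one. The longest peak grew less, from a median of 1091 bases to 1523 bases. Spearman's rho between peak number and genomic span was 0.367 across 7289 genes with a span, as a description across genes, which are not independent replicates. Between lists, rho for the number of peaks per gene was 0.807 for normal 1 and normal 2, 0.752 for normal 1 and normal 3, and 0.798 for normal 2 and normal 3 (n = 7469 genes, all from the same annotation).

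Centrosome, cytoskeleton and chromatin genes led by number of peaks. Pcnt, which encodes the centrosomal scaffold pericentrin, had 19, 22 and 20 peaks in normal 1, 2 and 3. Tnrc18 followed with 16, 17 and 15 peaks, and Cgnl1, a paracingulin of epithelial junctions, with 12, 12 and 11. Other genes of centrosomes or kinetochores were in this group: Akap9 with 13, 14 and 10 peaks, Cenpf with 13, 12 and 10, and Cep350 with 13, 12 and 10. The chromatin remodelling factor Bptf had 12, 11 and 10. Zc3h13, a subunit of the m6A writer complex itself, had 10, 11 and 10. The muscle myosin heavy chain Myh11 had 10, 11 and 12 peaks, and the matrix collagen Col6a3 10, 9 and 11. Further leading genes were Golim4 (12, 11 and 10), the translation factor Eif4g3 (10, 13 and 9), Erc1 (9, 12 and 10) and the kinase Rock1 (11, 11 and 9). Each gene named here had 9 or more peaks in every list.

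A typical peak was about 600 bases long, far longer than a motif. The median length was 623 bases in normal 1, 608.5 in normal 2 and 656 in normal 3 (mean 629 ± 24.3, SD, n = 3 lists). The middle 50% of peaks ran from 237 to 1242 bases in normal 1, from 232 to 1238 in normal 2 and from 263 to 1288 in normal 3. Peaks under 100 bases were 5.53%, 5.37% and 4.67% of the lists, and peaks over 3000 bases 3.35%, 3.57% and 3.802%. The shortest peak had 1 base, in normal 2, and the longest 11238 bases, in normal 1 and normal 2. Together the peaks covered 14.8, 14.7 and 13.1 Mb.

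Long peaks had higher scores. Spearman's rho between length and score was 0.482, 0.460 and 0.420 in the 3 lists, and between length and fold enrichment 0.367, 0.327 and 0.245, as descriptions across the peaks of a list. Peaks with a score of exactly 3100 had a median length of 1359.5, 1341 and 1384 bases, against 494.5, 493 and 578 bases below 3100. Peaks with a score under 100 had medians of 278, 270 and 318 bases. A caller's p falls with the number of reads as well as with enrichment, and read numbers per peak were not used here. For a gene, the length of its longest peak was also the value that agreed best between lists, with rho from 0.903 to 0.930 for the 3 pairs, above the 0.841 to 0.892 for the percentile and the 0.752 to 0.807 for peak number.

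**Figure D2:**
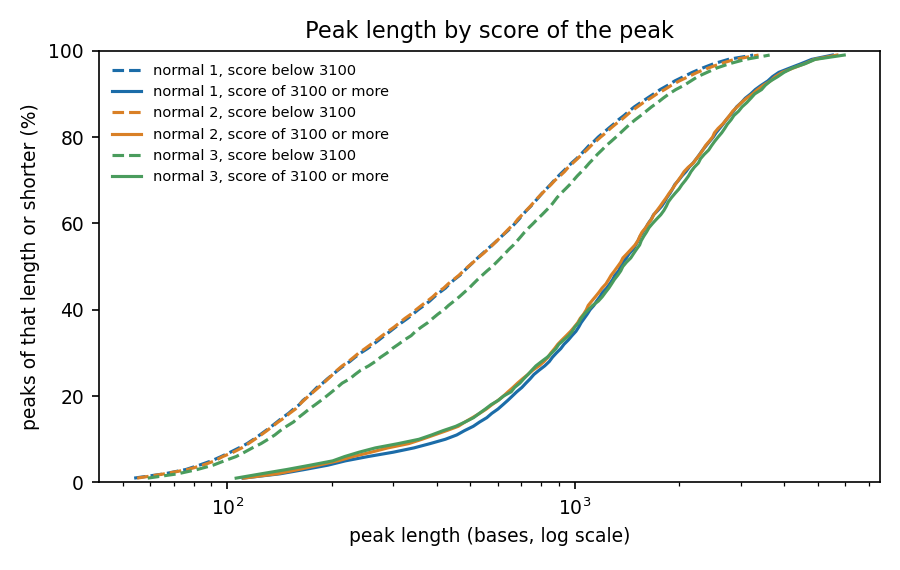
Cumulative percentage of peaks by length in bases (log axis) in each normal list, with peaks scored below 3100 as dashed lines and peaks scored 3100 or more as solid lines. The solid lines of all 3 lists lie together at longer lengths, and the dashed line of normal 3 lies at slightly longer lengths than those of normal 1 and normal 2.

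The longest peaks lay in genes known for very large exons. Eppk1, which encodes the keratin-binding plakin epiplakin, had a peak of 11238 bases in normal 1 and normal 2 and 10693 bases in normal 3, at chromosome 15, 76101488 to 76112725 in the first of these. Plec, another plakin, had a peak of 7412 bases in every list, and Map1a, a microtubule-associated protein, one of 8104 bases. The transcriptional regulators Spen and Nrip1 had peaks of 8020 bases in every list and of 7458, 7416 and 7373 bases. Stard9, a kinesin, reached 9325, 9347 and 9837 bases, and the zinc finger gene Zfp292 reached 7758, 7499 and 8184. Apc, the tumour suppressor of the Wnt pathway, had a peak of 7243, 7341 and 7030 bases, the proliferation marker Mki67 one of 6836 bases and the intermediate filament gene Synm one of 6746 bases in every list. In 5 of these 10 genes the longest peak had the same length in all 3 lists.

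A contrasting group had 1 short peak with a high score. Exactly 1 peak in each list, each shorter than the median of its list, was found in 648 genes. Among those of highest percentile, Ahnak had a peak of 146 bases at chromosome 19, 8989284 to 8989429, at its gene start, with a fold enrichment of 247.93, 394.63 and 226.01 in the 3 lists. Scand1 had a peak of 557 bases with folds of 187.37, 193 and 151.60, and Gadd45g, a stress response gene, one of 606 bases with folds of 85.60, 91.37 and 61.01. Pth1r, the receptor of parathyroid hormone, had a peak of 550 bases with folds of 82.71, 80.36 and 91.54. The others were Add1, a membrane skeleton adducin, with 567, 402 and 348 bases, Uros, an enzyme of haem synthesis, with 372, 372 and 344, the phosphatase Ptp4a2 with 381 and Prr13 with 350 bases in every list. The list medians of the fold were 11.46, 9.72 and 9.33. Most of these genes tie at the score limit and were then taken by their fold, so their high folds follow from the choice.

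The top of the score scale could not be ordered. In the 3 lists, 3004, 2821 and 1793 peaks (18.2%, 17.3% and 12.8%) had a score of exactly 3100, and 90, 101 and 68 peaks lay above it, up to 3233.06. The fold enrichment of peaks at exactly 3100 had medians of 27.7, 23.5 and 23.3, higher than the 21.2, 17.3 and 17.3 of the peaks above 3100. The highest value equals 10 times the negative log10 of the smallest positive number that double precision can hold, 3233.06, so 3100 and above is treated as 1 limit here. By the plain score the first 15 genes were Ankrd17, Myh11, Camsap3, Calm2, Ptch1, Jph2, Fam129b, Basp1, Golim4, Cdr2l, Chd6, Csnk1g2, Phldb1, Mga and Rab35. The folds of their highest-scored peaks were not uniformly high: Ankrd17 had 33.39, 12.83 and 6.74, and Myh11 12.78, 6.10 and 26.85. With scores of 3100 or more tied and the fold enrichment breaking ties, a setting added after the values were seen, 0 of these 15 genes stayed among the first 15. The score order therefore names these genes without setting them above others at the limit.

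With ties broken by fold enrichment, the first 15 genes covered several functions. Rrbp1, a ribosome-binding protein of the endoplasmic reticulum, had folds of 248.95, 289.72 and 216.37, and the kinase Map2k2 257.20, 199.56 and 158.66. Ppp1r9b, the neurabin family scaffold spinophilin, had 278.24, 178.99 and 126.82, and the nuclear receptor Nr2f2 170.69, 138.43 and 134.90. Ffar2, a receptor for the short-chain fatty acids made by colon bacteria, had 186.06, 133.37 and 114.85, with a peak of 1931 bases at chromosome 7, 30818357 to 30820287. Zc3h13 had 177.02, 137.82 and 130.49, Bptf 146.61, 166.40 and 112.92, and Pik3r1, a regulatory subunit of phosphoinositide 3-kinase, 144.19, 151.91 and 103.85. Cdv3 was the most even, with 132.34, 131.30 and 134.81, and Synm was highest in normal 3, with 114.09, 131.52 and 165.63. Ahnak, Scand1, Jakmip1 (239.66, 144.27 and 117.44), Ccdc85b and Gltscr1 completed the group. These 15 genes tie at the score limit and were taken by their fold, so their high folds follow from the choice. Fold enrichment is the authors' deposited value for each peak, from the immunoprecipitated library set against its input. It was ranked within a list, and differences in fold between lists were not tested.

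**Figure D3:**
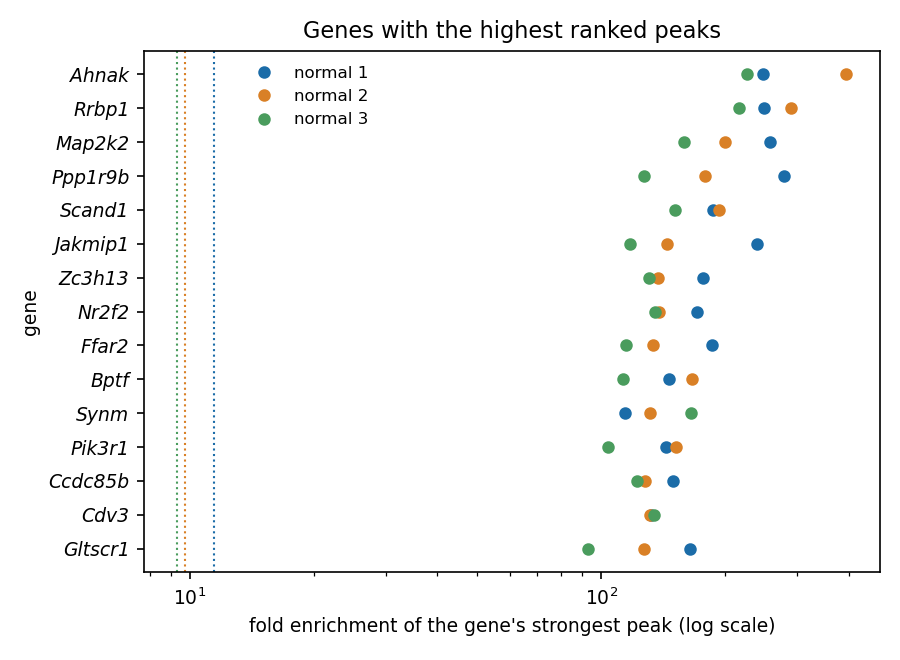
Fold enrichment (log axis) of the highest-scored peak of the 15 genes that lead when scores of 3100 or more are tied and fold enrichment breaks ties, with 1 point per normal list. Dotted lines mark the median fold of all peaks of each list, 11.46, 9.72 and 9.33. Every point lies far above them, which follows from choosing the genes by this fold.

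At the limit in all 3 lists stood 1476 genes, 19.8% of the 7469. They had a mean of 2.69 peaks, against 1.59 for the 4696 genes below the limit in every list, and their longest peak had a median of 1791.5 bases against 927.7. A single peak in each list was found in 23.9% of the genes at the limit and in 47.9% of those below it. The limit was reached by 2508 genes in normal 1, 2371 in normal 2 and 1554 in normal 3, so the shortest list also had the fewest.

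Most peaks touched neither end of the gene, but of 10 equal bins the first and the last each held more than any other. Peaks at the gene end were longer than those at the start or inside. Strand was known for 5774 genes (77.3%), and positions were counted along the genome from the gene start to the gene end, introns included. A peak touched the last 200 bases of the gene in 18.9% ± 0.448 of cases (mean ± SD, n = 3 lists), the first 200 bases in 14.7% ± 0.257, both in 0.848% ± 0.053, and neither in 65.6% ± 0.694. The median length was 1240 bases at the gene end, 553 inside the gene, 326 at the gene start and 1845 where a peak reached both ends. The median percentile of the score followed the same order, with 66.9 at the end, 51.0 inside, 45.7 at the start and 87.9 for both. With the gene split into 10 equal bins and each peak placed by its middle, the first bin held 19.3%, 19.8% and 19.8% of peaks, bin 2 held 4.04%, 3.995% and 4.02%, bin 9 held 12.2%, 12.2% and 12.1%, and the last held 32.3%, 31.3% and 32.0%. From bin 4 to the last, the share was higher in each bin than in the one before in every list.

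**Figure D4:**
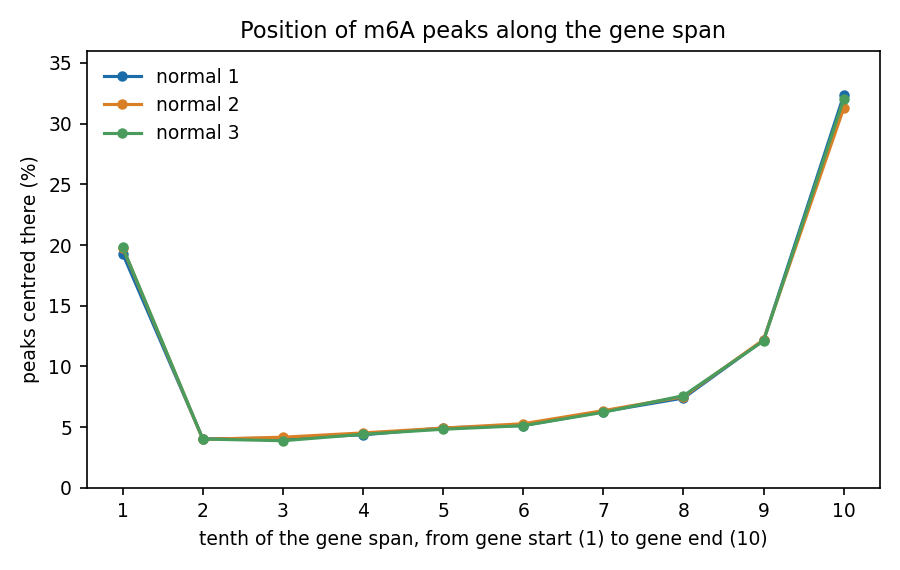
Percentage of peaks by position along the gene, in 10 equal bins from gene start to gene end, in each normal list, for the 5774 genes of known strand and without the peaks that reach both ends. The first bin holds 19.3% to 19.8% of peaks and the last 31.3% to 32.3%.

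When only the highest-scored peak of each gene was taken, 28.2% touched the gene end, 13.9% the start, 1.62% both and 56.3% neither. Among 2294 genes with 1 peak in each list, the peak of normal 1 lay at the end in 34.8% and at the start in 14.8%. A peak at the gene end was listed in all 3 lists for 1803 genes, one at the start for 1403 and both for 356. Because no exon table was used, distances to stop codons and to the last exon were not analysed here, and a peak inside a gene on this scale can lie in any exon.

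In 83 protein-coding genes, 1 peak spanned at least 95% of the gene in every list, and 41 of these were at the score limit in all 3. The longest of these genes spans 5007 bases. They included Jun, with peaks of 3189, 3189 and 3116 bases, and, with the same length in every list, Junb (1840 bases), Ier2 (1522) and Zfp36 (2470), which respond rapidly to growth factors and stress. Among epithelial genes, the tight junction claudins Cldn3 (1263 bases) and Cldn23 (1851 bases) and the secretory lineage factor Atoh1 (2090 bases) were covered in this way. The transcription factor Cebpa (2639 bases) and the inhibitor of differentiation Id1 (1160 bases) were covered too. Such a peak leaves little room for another, so a count of 1 has another meaning there than in a long gene.

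Genes were then grouped by role, as 28 lists with 760 entries, and the count of members with a peak in all 3 lists was set beside the 33.0% of all protein-coding genes. The share was above this background in 19 of 28 lists. For members at the score limit in every list, the background is the 19.8% at the limit among all 7469 genes. Percentages at the limit given below are of the members with a peak in all 3 lists. The lists differ in transcript abundance and gene length, which were not matched, so the shares describe the lists and test nothing. In whole tissue, fewer cells of a type and less RNA per cell cannot be told apart.

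**Figure D5:**
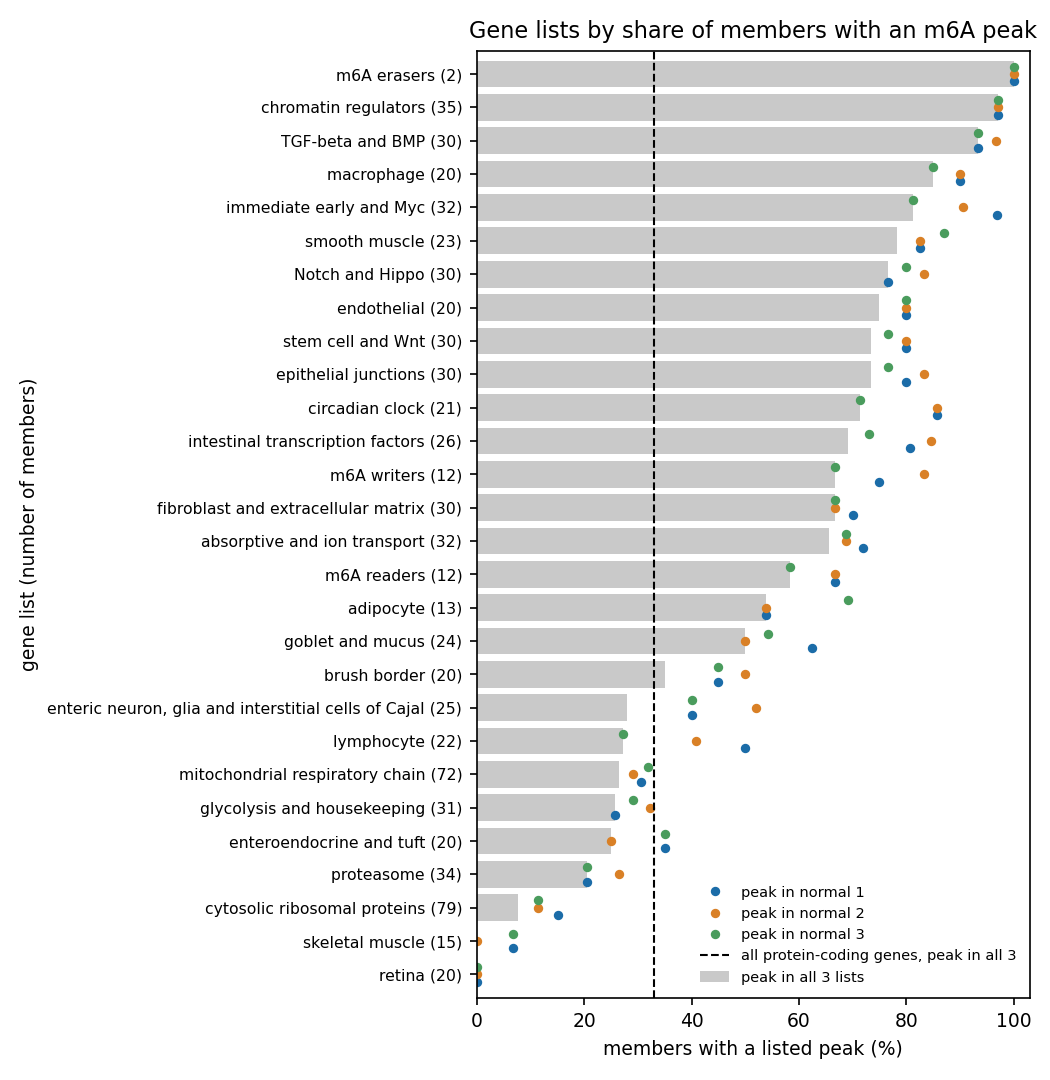
Percentage of the members of each gene list with a peak in all 3 normal lists, as grey bars beside the number of members, with 1 point per list for members with a peak in that list and a dashed line at the 33.0% of all protein-coding genes. Chromatin regulators (34 of 35) and m6A erasers (2 of 2) stand at the top and skeletal muscle (0 of 15) and retina (0 of 20) at the bottom.

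The genes of the m6A machinery mostly carried peaks themselves, but its catalytic core did not. Of 12 writer genes, 8 had a peak in all 3 lists: Zc3h13, Rbm15, Rbm15b, Cbll1, Virma and Wtap, which are regulatory subunits, and the separate methyltransferases Pcif1 and Mettl5. Zc3h13 had 10, 11 and 10 peaks, Virma (listed under an older name) 5 in each list and Wtap 5, 5 and 4. Zcchc4 had a peak in 2 lists, Mettl16 in 1, and the core subunits Mettl3 and Mettl14 had none. Among the erasers, Alkbh5 had 1, 2 and 2 peaks, at the score limit in every list, with folds of 34.47, 37.12 and 33.87. Fto had 1, 2 and 3 peaks with its highest-scored one at a mean percentile of 49.1 and folds of 7.94, 5.98 and 5.89, so its best peak ranked near the middle of the lists. Of 12 readers, 7 had a peak in all 3 lists and 5 of them (Ythdc1, Prrc2a, Ythdf1, Ythdf2 and Ythdf3) were at the limit in every list. Ythdc1, a nuclear reader, had 5, 6 and 6 peaks with folds of 82.69, 61.54 and 49.55, and the reader genes Fmr1 and Igf2bp2 had 1 peak in each list. Ythdc2 had a peak in 2 lists, and Igf2bp1, Igf2bp3, Hnrnpa2b1 and Hnrnpc had none.

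Chromatin regulators had the highest median number of peaks per gene of the 26 lists with a member in all 3 peak lists, with gene length not matched. A peak in all 3 lists was found in 34 of 35 members, and 21 of these (61.8%) were at the score limit in all 3. The 34 genes had a median of 4.33 peaks, against 1.67 over all protein-coding genes with a peak in every list. Ezh1 alone had no peak. The methyltransferase Kmt2d had 5, 4 and 4 peaks with folds of 106.41, 74.21 and 65.68, and the nucleosome remodelling subunit Arid1a 5, 6 and 5 peaks. Tet3, a DNA demethylase, had 6, 4 and 4 peaks of up to 6140, 6102 and 6247 bases. The demethylase Kdm6b had 1 peak of 2168 bases in every list and the coactivator Ncoa6 4, 3 and 5 peaks.

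Transporters and channels of colon surface cells were split. Of 32 genes of absorption and ion transport, 21 had a peak in all 3 lists, 3 in fewer and 8 in none. Aqp4, a water channel of basolateral membranes, had 4 peaks in each list, the longest of 4336, 4313 and 4313 bases. Scnn1a, a subunit of the epithelial sodium channel, also had 4 in each list, and the chloride channel Cftr had 2, with folds of 57.5, 43.76 and 29.22. The sodium, potassium and chloride cotransporter Slc12a2 had 2, 3 and 2 peaks with folds of 58.94, 44.5 and 44.31. The creatine transporter Slc6a8 had 2, 1 and 1 and the sodium/proton exchanger Slc9a3 1, 1 and 2. Of the 21, 8 (38.1%) were at the limit in every list. All 6 genes named are among these 8, which follows from naming members by rank. The members with no peak were Aqp1, Aqp8, Atp1b1, Car1, Car4, Scnn1g, Slc26a3 and Slc26a6, several of them abundant products of colonocytes.

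The brush border list was near the background, with 7 of 20 genes in all 3 lists and 9 in none. Plec and Krt20, a keratin of mature surface cells, were at the limit in every list. The Krt20 peak was 467 bases long in each list, with folds of 12.88, 15.6 and 11.83. Vil1, an actin bundler of microvilli, had 1, 2 and 1 peaks of at most 61, 86 and 86 bases. Ezr, a membrane linker, varied most: its longest peak had 153 bases in normal 1 and 1427 and 1420 bases in normal 2 and normal 3. The protocadherin Cdhr2 had 1 peak of 606 bases in each list and Espn 2, 4 and 3 peaks. Cdh1, Cdh17 and Dpp4 were among the genes with none.

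Among goblet cell genes, the enzymes that build mucin sugars had peaks and the main secreted proteins of mucus did not. Of 24 genes, 12 had a peak in all 3 lists and 7 of these (58.3%) were at the limit in every list. All glycosyltransferases of the list had a peak in all 3 lists, and B3gnt6, Galnt3, Galnt4, Gcnt3 and C1galt1 were at the limit in each, while Galnt7 and Galnt12 (named, like C1galt1, after their values were seen) were not. Galnt4 had 1 peak of 4555, 4957 and 4666 bases, and Gcnt3 had one of 3843 bases in each list. The membrane mucin Muc4 had 2 peaks in each list and, with Atoh1, made up the 7. No peak was listed for Clca1, Ern2, Fcgbp, Muc13, Muc2, Muc20, Retnlb, Tff3 or Zg16, of which Muc2, Fcgbp, Clca1 and Zg16 are secreted components of mucus. Enteroendocrine and tuft cell genes had a peak in all 3 lists in 5 of 20 cases: Chga, Chgb, Sst, Neurod1 and Isl1. Chga, a granin of hormone granules, had folds of 91.43, 74.25 and 87.29, and Chgb 4 peaks in each list.

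Junction genes had a peak in all 3 lists in 22 of 30 cases, and 11 of these (50%) were at the limit in every list. Camsap3, which anchors microtubule minus ends, had 2 peaks in each list with folds of 20.82, 14.79 and 16.04. Plekha7, of adherens junctions, had 5, 6 and 5 peaks, and the scaffolds Magi1 and Afdn 5, 4 and 4 and 4, 4 and 3. Evpl, a plakin, had a longest peak of 3643 bases in every list. Cldn3 had 1 peak of 1263 bases with folds of 39.36, 35.37 and 28.16. Cldn7, Cldn15, Ctnna1 and Tjp3 had no peak in any list.

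Stem cell and Wnt genes had a peak in all 3 lists in 22 of 30 cases. Of these 22, 13 (59.1%) were at the limit in every list. The coreceptor Lrp5 had 9, 9 and 7 peaks with folds of 40.78, 30.89 and 35.67, and the receptor Fzd7 had 1 peak of 4505, 4809 and 3963 bases with folds of 57.23, 35.6 and 32.14. Lgr4, a receptor of R-spondins, had 2, 3 and 2 peaks with folds of 71.21, 54.5 and 37.36. The ubiquitin ligase Rnf43, which removes Frizzled receptors, had 2, 4 and 3, and the beta-catenin coactivators Bcl9 and Bcl9l had 3 in each list and 5, 6 and 5. The stem cell gene Lgr5 had a peak in 1 list, and Ctnnb1, which encodes beta-catenin, Dvl2, Notum and Olfm4 had none. Ascl2, a stem cell transcription factor named after its values were seen, had 1 peak of 518 bases in each list, at percentiles of 34.6, 20.4 and 18.3.

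Of 26 transcription factors of intestinal identity, 18 had a peak in all 3 lists. Klf5, of proliferating crypt cells, had 3 peaks in each list with folds of 50.64, 41.39 and 34.72. The pioneer factor Foxa1 had 2 peaks in each list, its longest of 2687, 2672 and 2552 bases, and Foxa2 had 1 of 1948, 1928 and 1948. Elf3 had 1 peak of 807 bases in each list and Klf4 1, 2 and 2 peaks. Cdx2, the master factor of intestinal fate, had 2, 1 and 1 peaks, and the percentile of its highest-scored peak ranged from 58.8 in normal 3 to 90.3 in normal 1. Esrra, Gata4, Hnf4g and Onecut2 had no peak.

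Notch and Hippo genes had a peak in all 3 lists in 23 of 30 cases. The Hippo kinases Lats2 and Lats1 had 7, 6 and 6 peaks and 4, 3 and 3 peaks. Lats2 is also a case of the score limit, since its highest-scored peak had a fold of 147.78 in normal 1 and 89.65 in normal 3 at a score of 3100, and one of 27.91 in normal 2 above it. The receptor Notch2 had 2 peaks in each list with a longest of 4315, 4315 and 4266 bases, its ligand Jag1 2 in each list and its coactivator Maml1 2 in each list. The YAP-binding protein Amotl1 had 2, 4 and 2. Lfng, Numb, Stk3 and Tead2 were among the 5 with none.

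Immediate early genes and Myc had a peak in all 3 lists in 26 of 32 cases, with a median of 1 peak. Of these 26, 11 (42.3%) were at the limit in every list. Jund had 1 peak with folds of 139.78, 124.68 and 107.13, and Jun 1 with folds of 96.57, 68.49 and 52.46. Zfp36, which destabilises cytokine mRNAs, had folds of 74.87, 53.39 and 42.09. Socs3, an inhibitor of cytokine signalling, had 1 peak of 2240 bases in each list with folds of 35.55, 24.94 and 21.76. In these 4 genes the fold was highest in normal 1 and lowest in normal 3, as was the median fold of all peaks. Fos, Egr3 and Btg2 had a peak in 2 lists, Egr2 and Snai1 in 1, and Fosl1 had none.

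TGF-beta and BMP genes were among the most complete groups, with 28 of 30 in all 3 lists. Of these 28, 9 (32.1%) were at the limit in every list. The corepressor Ski had 4, 4 and 3 peaks with folds of 87.22, 81.62 and 65.84, and its relative Skil 4, 3 and 3. The ligands Tgfb1 and Bmp2 had 2 and 3 peaks in each list, and the inhibitory Smad6 and Smad7 had 2 in each list and 2, 3 and 3. Smurf2 had a peak in 1 list and the receptor Bmpr1b had none. Circadian clock genes had 15 of 21 in all 3 lists, with 1 of these (6.67%) at the limit in every list. This gene, Bhlhe40, had 2 peaks in each list and folds of 30.43, 35.25 and 23.79. Per2 had 4, 4 and 3 peaks, and Arntl, Cry1 and Dbp had none.

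The muscle wall was represented by 18 of 23 smooth muscle genes, 9 of them (50%) at the limit in every list. Beside Myh11, the actin-binding caldesmon Cald1 had 6 peaks in each list, with folds of 32.11, 27.49 and 33.18. The filament linker Synpo2 had 2, 3 and 4 peaks with a longest of 3663 bases in every list. Lmod1, an actin nucleator, had folds of 56.91, 51.01 and 43.19, and the tropomyosin Tpm2 1 short peak of 355, 347 and 355 bases. Acta2 and Tagln, abundant contractile genes, had no peak in any list. Skeletal muscle genes, a check for other muscle, had 0 of 15 in all 3 lists, with Acta1 and Ttn in 1 list each.

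Stromal and vascular genes were mixed. Of 30 genes of fibroblasts and matrix, 20 had a peak in all 3 lists. Tnxb, a tenascin, had 6, 8 and 7 peaks with folds of 121.98, 84.95 and 123.92, and the laminin chain Lamc1 5, 5 and 4 peaks. Col6a3 had folds of 39.76, 33.72 and 24.24, and Pdgfrb, Hspg2 and Bmp4 had 1 to 3 peaks in each list. Col3a1, Col5a2, Dcn and Eln were among 9 with none. Endothelial genes had 15 of 20 in all 3 lists, with 2 of these (13.3%) at the limit in each. They were Cdh5 and Plvap, which encode the cadherin and the diaphragm protein of vessel walls. The Cdh5 folds were 67.88, 61.35 and 58.95. Emcn, Nos3 and Tie1 had none.

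Immune cell genes split by type. Of 20 macrophage genes, 17 had a peak in all 3 lists, and 1 of them (5.88%) was at the limit in each. Cd14, a receptor for bacterial lipopolysaccharide, had 1 peak of 1334, 1311 and 1334 bases, the fractalkine receptor Cx3cr1 one of 3599, 3405 and 3661, and Irf8 5, 4 and 4 peaks. Adgre1 and Cd68 had none. Of 22 lymphocyte genes, 6 (27.3%) had a peak in all 3 lists, near the 33.0% background, and none of these was at the limit in every list. The number with a peak was 11 in normal 1, 9 in normal 2 and 6 in normal 3 (50%, 40.9% and 27.3%). Over all protein-coding genes the shares in these lists were 39.8%, 39.1% and 35.9%. Ikzf3, a lymphoid transcription factor, had 5, 2 and 1 peaks. Cd3e, Cd4 and Cd8a had no peak. The share of lymphoid tissue in each sample was not given in the sources used here.

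Of 25 genes of enteric neurons, glia and interstitial cells of Cajal, 7 had a peak in all 3 lists. Map1b, a microtubule-associated protein of neurons, had 5, 4 and 4 peaks with a longest of 6490 bases in every list. Ano1, the chloride channel of the interstitial pacemaker cells, had 4, 3 and 2 peaks, and Nos1 and Nrxn2 1 in each list. Chat, Gal, Gfap and Nrxn3 were among 10 with none. Of 13 adipocyte genes, 7 had a peak in all 3 lists, with Cebpa, Acaca and Pnpla2 at the limit in each.

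Genes of translation, protein turnover and basic metabolism had these shares beside the 33.0% background. Cytosolic ribosomal proteins had 6 of 79 genes in all 3 lists, Rpl29, Rpl26, Rpl4, Rpl8 and Rps26 among them, and 66 in none. Rpl29 had folds of 42.19, 40.09 and 33.7. Near-identical pseudogene copies make the assignment of ribosomal protein reads uncertain. Proteasome subunits had 7 of 34, with Psmd7 and Psma4 at the limit in each list, and genes of glycolysis and housekeeping 8 of 31. Among the latter, the hexokinase gene Hk1 had 2, 4 and 4 peaks and its relative Hk2 had 3 in each list. Actg1, Aldoa, B2m and Eef1a1 were among 21 with no peak. Subunits of the mitochondrial respiratory chain had 19 of 72, with 0 at the limit in all lists and a median percentile of 47.6 against 67.9 over all protein-coding genes with a peak in every list. Their lengths varied: Cox5a had 1 peak of 184 bases, Ndufa12 2 peaks of at most 176 bases and Ndufv3 a longest peak of 1092 bases in each list.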

How the data were processed

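Per the file headers and peak names, the authors deposited 1 peak list per sample, restricted to mRNA and in the format of the caller MACS, with the immunoprecipitated library set against its input. Base calling used CASAVA 1.8 and alignment BWA, per the submitters' processing notes, which name hg19, a human build. The listed positions match mouse GRCm38. Of the peaks whose gene was matched to the RefSeq table for that build, 99.3% to 99.4% overlapped that gene there. The score (10 times the negative log10 of the p-value), the fold enrichment as a ratio and the false discovery rate in percent are the authors' deposited values per peak. Caller settings, replicate handling and read depths are not given in the sources used here. The depth behind a peak is therefore unknown. The lowest score was 50, a p of 1e-05. No peak had a false discovery rate of 5% or less, with minima of 18.73%, 12.5% and 30.43%. A rate of 100% or more was listed for 10.5%, 13.7% and 37.8% of the peaks of normal 1, normal 2 and normal 3. That column was not used to filter.

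Python 3.11.15 with pandas 2.3.3 and numpy 2.4.6 was used. Genes were taken by listed name. Percentiles of the score were computed within a list, with ties sharing their mean rank. Listed starts are counted from 0 and positions are given counted from 1. In the gene table, 7289 of the 7469 genes (97.6%) were matched. A gene end was the last or first 200 bases. No group was compared, so no test was run. The scripts were tested on simulated data.

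The members, gene lists, rules and alternatives were chosen with earlier results of these data known. Named genes are the 15 of highest mean percentile, the 15 with the most peaks, the 10 with the longest peak, the 8 of highest percentile with 1 short peak in each list, up to 6 members with and 4 without a peak per gene list, all genes of the m6A machinery, the tissue markers, and the 5 genes of highest percentile in 1 and in 2 lists, without clone names. In a gene list, members with a peak were taken by highest mean percentile, then fold, and members without one in alphabetical order. Further names were chosen after their values were seen. Some genes that these rules take are not reported here. Alternatives were stricter scores and folds, equal list sizes, each list left out, gene assignment by overlap, stricter overlap, joined peaks and other position rules.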

Additional observations from a re-analysis of the deposited data

How the results depend on the processing

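The counts of shared genes and regions, and the number of gene lists above the background, stayed within 1.5 times the reported value in every alternative run. Genes with a peak in all lists numbered 6654 at a score of at least 100, 7355 at a fold of at least 4, 7084 with 13992 peaks from each list, 7761 with genes assigned by overlap and 7677 to 8248 with 1 list left out. Regions ranged from 9800 at a score of at least 100 to 13826 without normal 3. With scores of at least 100, peaks per gene averaged 1.76, median length was 715 bases and 20.2% of peaks touched the gene end. The median length was 683 bases with equal list sizes. The share at the gene end was 28.2% for the highest-scored peak alone and 21.2% with a zone of 500 bases, the latter chosen after seeing the data. Of the first 15 genes by score, 0 stayed when ranked by fold, 0 when scores of 3100 or more were tied, and 3 to 12 when a list was left out (3 without normal 1, 12 without normal 2 and 5 without normal 3). Stricter rules remove weak peaks by construction, and other causes were not tested. No paired analysis was possible because no groups were compared. Read depth and transcript abundance were not measured here, so their part in which genes are listed was not tested.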

Other observations

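Gene families named by a shared prefix, with at least 40 protein-coding members, ranged widely around the 33.0% background. The Zbtb genes, which encode transcription factors with a BTB domain and zinc fingers, had a peak in all 3 normal lists in 38 of 41 cases (92.7%). The Zfp zinc finger genes had one in 260 of 397 (65.5%), with a median of 1 peak. Genes named Map had 32 of 47 (68.1%), Ppp 47 of 77 (61.0%), Rnf 43 of 83 (51.8%) and the mitochondrial ribosomal Mrpl genes 25 of 49 (51.0%), well apart from the cytosolic Rpl genes with 6 of 53 (11.3%). Solute carriers, at 137 of 375 (36.5%), lay near the background. Cytochrome P450 genes had 6 of 99 (6.06%), keratins 1 of 53 (1.89%), olfactory receptors 1 of 1110 (0.0901%) and the vomeronasal Vmn genes 0 of 355. These families were chosen by size and named after their values were seen, a prefix can join unrelated genes, and expression in colon was not measured separately.

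By chromosome, the share of protein-coding genes with a peak in all 3 lists lay between 27.4% (chromosome 7) and 42.1% (chromosome 18) on the autosomes, and was 16.8% on the X chromosome (162 of 966) and 1.56% on the Y chromosome (4 of 256). None of the 13 mitochondrial genes had one.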
